A study of Mus musculus with 183 samples.

Results

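For every mRNA in the study's binding table, crosslinking to the RNA helicase SKIV2L was set against crosslinking to the exonuclease XRN1 in mouse embryonic stem cells (mESCs). The members are all 7240 of the 7240 mRNAs in that table, and the measure is the log2 of the ratio of the SKIV2L value to the XRN1 value. Positive ratios mean that a larger part of the SKIV2L reads than of the XRN1 reads fell on the mRNA, and negative ratios the reverse. The ratio was not used directly to choose the mRNAs. The authors kept mRNAs with a minimum of CRAC reads for every protein in the table and a higher minimum for any of them. Weakly bound mRNAs were thus left out, as were those nearly without reads of any single protein, so the most extreme ratios can be missing.

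The series holds 183 samples of mESCs, of which 6 SKIV2L and 5 XRN1 libraries feed the ratio. They were made by CRAC, in which RNA is crosslinked to a tagged protein with ultraviolet light and the protein is purified by its FLAG tag and then on streptavidin. The SKIV2L line was Rosa26Cre-ERT2/BirA-V6 with Skiv2l3xFLAG-Avi/3xFLAG-Avi, the XRN1 line carried Xrn13xFLAG-Avi/3xFLAG-Avi in the same Rosa26Cre-ERT2/BirA-V6 background, and neither was treated. These names are those of the labels, whereas the study's methods write BirA-V5 for both lines. Libraries of each protein came from 1 tagged line, from long and short versions of the protocol and from 2 lysis buffers, and the authors pooled them, so the ratio has no replicate error and its depth is unknown. The RNA half-life libraries came from other cells: clone 5F, labelled Rosa26Cre-ERT2/- Skiv2lfl/fl, and clone 7E, whose label names Aven-/- together with the tagged Skiv2l alleles while the study's methods describe it as a conditional Skiv2l line. Each clone was sampled without 4-hydroxytamoxifen (4OHT, day 0) and after 4 days in it (day 4), the drug that lets CreERT2 remove the Skiv2l exons flanked by loxP sites, and RNA was taken at 0, 120, 240 and 360 min of actinomycin D, which blocks transcription. Each of these groups had 3 libraries, except clone 5F at day 0 and 120 min, which had 2. Nothing in the labels says that replicates came from separate cultures, and the study calls both the CRAC and the half-life replicates technical. The p-values thus measure the spread between these libraries, with 1 clone per genotype.

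SKIV2L is the helicase of the SKI complex, which feeds mRNA into the cytoplasmic exosome for degradation from the 3′ end. XRN1 degrades decapped mRNA from the 5′ end and is the main nuclease of bulk mRNA turnover. MTR4, the third protein in the binding table, is the nuclear counterpart of SKIV2L and feeds the nuclear exosome. The 3 values of an mRNA are shares that sum to 1, so a share can fall because another rises, whereas the ratio of SKIV2L to XRN1 does not depend on MTR4.

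Across all 7240 mRNAs the median log2 ratio was -0.29, an XRN1 value 1.23-fold the SKIV2L value. The SD across mRNAs was 1.27 and the quartiles were -1.14 and 0.54. The authors scaled the read totals of the proteins to the smallest, so ratios compare shares of each protein's reads. The median and the group sizes therefore do not give the absolute amounts bound. The ratio was above 1 for 1061 mRNAs (14.7%, called SKIV2L-preferring here), below -1 for 2047 (28.3%, XRN1-preferring) and between these bounds for 4132 (57.1%, balanced). The SKIV2L-preferring mRNAs had a median SKIV2L share of 53.9% and an XRN1 share of 17.2%, against 14.9% and 51.2% for the XRN1-preferring mRNAs. The MTR4 share was 26.6% in the former and 31.9% in the latter. Values just inside and outside the upper bound were 1.0014 for Pltp and 1.0028 for Gabarap against 0.9986 for Rpl23 and Clk3. Around the lower bound, Ephb3 stood at -1.0014 and Cep170b at -1.0029, with Necap2 and Tab1 at -0.9986.

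Many mRNAs shared exactly the same ratio. There were 2366 distinct ratios, and 5754 mRNAs (79.5%) shared theirs with at least one other mRNA, the commonest being -0.37, held by 210 mRNAs. The mRNAs that shared a ratio had a median expression of 16.8 RPKM, and the 1486 with a ratio of their own 59.5 RPKM. Ratios of low mRNAs are thus coarse, and the highest and lowest ratios named below are those at 10 RPKM or more unless stated; mRNAs named for a tested change in counts were not held to this minimum. The RNA level in both tagged lines was similar: the log2 difference had an SD of 0.25 and a rank correlation of 0.23 with the ratio over 7234 mRNAs. Dividing by each line's RPKM gave ratios with a rank correlation of 0.98 to the uncorrected ones and left 942 of the 1061 SKIV2L-preferring and 1884 of the 2047 XRN1-preferring mRNAs in their group.

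At the SKIV2L end, the replication-dependent histone mRNAs held the highest ratios, with Hist2h2ab at 4.49 (SKIV2L share 42.6%, XRN1 share 1.9%) and Hist1h2ak at 4.31. Outside them, Hnrnpa3, which encodes a nuclear RNA-binding protein, had the highest ratio at 10 RPKM or more, 4.29, from a SKIV2L share of 87.3% and an XRN1 share of 4.46%. It was followed by Ndufaf2 (3.99), an assembly factor of respiratory complex I, Vcl (3.91), which encodes the focal adhesion protein vinculin, and Cbr3 (3.72), a carbonyl reductase. Psma3 (3.50), a proteasome subunit, Baz1a (3.44), a chromatin remodelling subunit, Tpm1 (3.44), a tropomyosin, and Mrps25 and Rps7 (3.37 and 3.33), ribosomal proteins of the mitochondrion and the cytosol, came next. Grcc10 (3.47) belonged to this list although MTR4 held 90.2% of its binding, and its SKIV2L share was 8.97%. Mrps25 was the member of this list that moved most with the RNA levels of the lines, to 2.15.

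At the XRN1 end, Gtf3c2, a subunit of the RNA polymerase III factor TFIIIC, had a SKIV2L share of 2.49% and an XRN1 share of 77.2%, a ratio of -4.96. Src (-4.48), the tyrosine kinase, Zfp12 (-4.46), a zinc finger protein, Ube2l3 (-4.37), a ubiquitin-conjugating enzyme, and Usf2 (-4.25), a transcription factor, followed. Csnk2a1 (-4.15), the catalytic subunit of casein kinase 2, Trps1 (-4.11), a GATA-type repressor, Spry4 (-4.03), a feedback inhibitor of receptor tyrosine kinase signalling, Atxn7l3 (-3.99) and Tmem263 (-3.93) completed the 10 lowest. After correction for the RNA levels all 10 stayed at or below the -3.87 of Spry4. Of the transcripts that the study names for binding or decay, Vdac1 (1.82), the porin of the outer mitochondrial membrane, Pdia4 (1.81), Noc2l (1.44), Sfpq (1.29), a splicing factor, and Calr (1.02) were SKIV2L-preferring. Ifrd1 (0.83), Mdk (0.57), Trim28 (0.11), a corepressor, and Atf4 (-0.16), the transcription factor of the integrated stress response, were balanced.

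Replication-dependent histone mRNAs, which lack a poly(A) tail and end in a conserved stem-loop, were mostly bound more by SKIV2L. The stem-loops of 6 members with unlike ratios are printed here to set this element beside the ratios; capitals mark the 16-base stem-loop, and the sequences are from the Gencode M21 transcripts placed on GRCm38.
Hist1h4d: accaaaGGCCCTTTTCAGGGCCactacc
Hist1h3d: cccaaaGGCTCTTTTCAGAGCCaccccc
Hist1h2bj: tccaaaGGCTCTTTTCAGAGCCacgcac
Hist1h2bk: accaaaGGCTCTTTTAAGAGCCactaaa
Hist1h2bb: cccaaaGGCTCTTTTAAGAGCCacccac
Hist1h3e: caaaacGGCTCTTTTAAGAGCCacctcc
These lie after the stop codon in the last exon, at chr13:23581944-23581971 (plus strand, Hist1h4d), chr13:23576238-23576265 (plus, Hist1h3d), chr13:22043632-22043659 (plus, Hist1h2bj), chr13:22036294-22036321 (plus, Hist1h2bk), chr13:23747197-23747224 (plus, Hist1h2bb) and chr13:23561897-23561924 (minus, Hist1h3e). In the annotated transcripts the element does not always stand at the end: in Hist1h4d the printed element begins 37 nt after the stop codon of an 822-nt 3′ UTR. The log2 ratios of these 6 mRNAs were -0.44, 0.05, 2.68, 0.36, 2.84 and 3.26 in the order printed. The same 16 letters thus occurred in histone mRNAs with low and with high ratios: among those at 10 RPKM or more, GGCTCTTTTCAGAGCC was found in 16 with ratios from 0.05 to 2.68 (median 1.52) and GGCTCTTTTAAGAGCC in 5 with ratios from 0.36 to 3.26 (median 2.84). The histone stem-loop motif was found after the stop codon of 37 of the 50 replication-dependent histone mRNAs (74.0%) and of 4 of 6675 other mRNAs (0.0599%). The median ratio was 1.45 in the 37 histone mRNAs with the motif and 2.91 in those without it. The search covers annotated transcripts only, and that of Hist1h1b has a 3′ UTR of 0 nt.

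Of these 50 histone mRNAs, 33 were SKIV2L-preferring and none was XRN1-preferring, 47 had a ratio above 0, and the median was 1.55 against -0.29 over all mRNAs. By subfamily the median was 2.5 for the linker histone H1 (5 mRNAs), 1.91 for H2A (11), 1.98 for H2B (13), 1.80 for H3 (9) and 0.83 for H4 (12). H4 thus stood lowest, with 5 of 12 mRNAs above 1, and the most expressed H4 mRNA, Hist1h4d, had an XRN1 share of 46.8% and a SKIV2L share of 34.4%. The 10 polyadenylated mRNAs of replacement histones, which are made outside S phase, had a median of 0.09, and H1f0 (-1.11) was XRN1-preferring. Histone genes are nearly identical in their coding sequences and only uniquely mapped reads were kept, so values of single histone mRNAs are uncertain. The same applies to ribosomal protein mRNAs, Gapdh and Hnrnpa3, which have many processed pseudogenes.

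**Figure D1:**
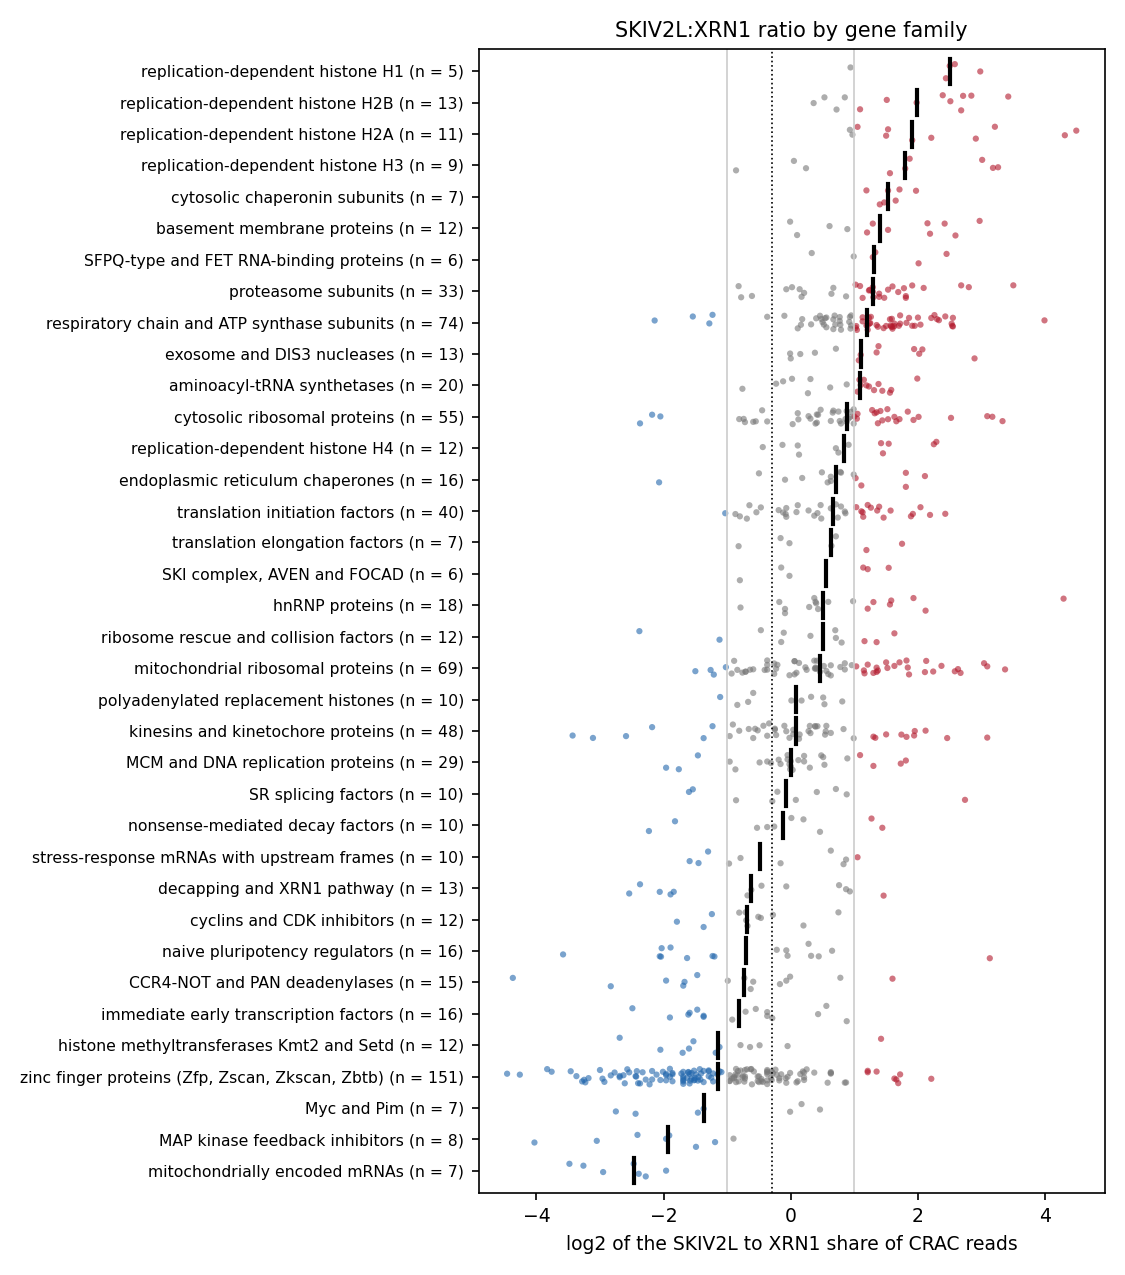
Log2 ratio of SKIV2L to XRN1 CRAC binding (x axis) of each mRNA in 36 gene families (rows); points are mRNAs, shifted vertically for visibility and coloured by preference at the bounds of 1 and -1 (grey lines), black ticks are family medians and the dotted line is the median of all mRNAs, -0.29. Histone, proteasome, respiratory chain and chaperonin families lie to the right, zinc finger, MAP kinase feedback and mitochondrially encoded mRNAs to the left.

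Next to the histones, mRNAs of abundant housekeeping complexes were bound more by SKIV2L. All 7 mRNAs of the cytosolic chaperonin CCT were SKIV2L-preferring, from 1.19 for Cct2 to 1.97 for Cct7 (median 1.53). Of 33 proteasome subunit mRNAs, 22 were SKIV2L-preferring (median 1.29), with Psma3 at 3.50 and Psmd7, the lowest, at -0.82. Of 74 mRNAs for respiratory chain and ATP synthase subunits encoded in the nucleus, 43 were SKIV2L-preferring and 4 XRN1-preferring (median 1.20), with Cox7a2l lowest at -2.14. The 20 aminoacyl-tRNA synthetase mRNAs, which encode the enzymes that charge tRNAs, had 12 SKIV2L-preferring members (median 1.09) from Farsb at 1.99 to Wars at -0.76. The share of SKIV2L-preferring mRNAs was 14.7% over all mRNAs, and it was 66.7%, 58.1% and 60.0% in the latter 3 families. It was 46.0% over all mRNAs in the highest of 5 RPKM bins and the shortest of 5 3′ UTR bins, where the medians of these families fall.

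The translation machinery shared this side of the scale but less strongly. Of 55 cytosolic ribosomal protein mRNAs, 20 were SKIV2L-preferring (36.4%) and 3 XRN1-preferring (median 0.88), with Rps7 at 3.33 and Rpsa at -2.37. Their median expression was 286.9 RPKM and their median 3′ UTR 58 nt. Over all mRNAs in the highest of 5 RPKM bins and the shortest of 5 3′ UTR bins, the median was 0.92 and 46.0% were SKIV2L-preferring. This family thus did not exceed its bin. The 69 mitochondrial ribosomal protein mRNAs had a median of 0.46 with 25 SKIV2L-preferring members, and the 40 initiation factor mRNAs a median of 0.67 with 15. These were 36.2% and 37.5%, against 13.5% and 28.0% of all mRNAs in the bins that hold the families' median RPKM and 3′ UTR. The subunits of the scaffold factor eIF3, Eif3m (2.43), Eif3g (2.19) and Eif3h (2.04), led the initiation factors. Among RNA-binding proteins, 7 of 18 hnRNP mRNAs and 4 of the 6 SFPQ-type and FET mRNAs were SKIV2L-preferring (Nono 2.45), whereas the 10 mRNAs of SR splicing factors centred on -0.07. Of the 16 endoplasmic reticulum chaperone mRNAs, 5 were SKIV2L-preferring (median 0.71), with Hsp90b1 at 2.11 and Dnajb9 at -2.07 (9.71 RPKM).

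Of the 12 basement membrane mRNAs, 8 were SKIV2L-preferring (median 1.41). Their median length was 6270.5 nt against 3095.5 nt over all mRNAs. Sparc (2.97), Col4a1 (2.59, at 4.88 RPKM), a chain of collagen IV, and Lamb1 (2.42), a laminin chain, led this family.

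At the other end stood mRNAs of transcription factors and signalling regulators. Of 151 mRNAs for zinc finger proteins (Zfp, Zscan, Zkscan and Zbtb), 78 were XRN1-preferring and 8 SKIV2L-preferring (median -1.15). Of the 8 MAP kinase feedback inhibitors, which dampen growth factor signalling, 7 were XRN1-preferring (median -1.93), among them Spry4 (-4.03), Dusp1 (-3.05, at 8.67 RPKM) and Spry2 (-2.41), with Dusp4 at -0.90 (2.91 RPKM). The 16 immediate early transcription factors had a median of -0.82 with 7 XRN1-preferring members, and the 7 Myc and Pim family mRNAs a median of -1.37 with 4 (Pim3 -2.75), which was -0.01 at 10 RPKM or more. Histone methyltransferases of the Kmt2 and Setd families were likewise low, with 7 of 12 XRN1-preferring (median -1.15). The background share was 28.3% over all mRNAs, against 51.7%, 87.5%, 43.8%, 57.1% and 58.3% in these families. It was 43.5%, 38.6% and 29.9% in the lowest, second and middle of 5 RPKM bins. The median of the immediate early mRNAs (7.0 RPKM) fell in the lowest bin, and their share was close to that bin's. Those of the zinc finger (10.1) and Kmt2 and Setd mRNAs (7.78) fell in the second. Those of the MAP kinase feedback inhibitors (26.0) and Myc and Pim (28.3) fell in the middle bin.

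The naive pluripotency regulators of mESCs were split. Dppa5a, an RNA-binding protein, had a ratio of 3.13 and Pou5f1, the core factor OCT4, 0.65, whereas Tbx3 (-3.58), Klf4 (-2.03) and Sox2 (-1.89) were XRN1-preferring, as were 8 of these 16 mRNAs in all (median -0.71). Cell cycle families lay between: the 29 replication proteins centred on 0.00, the 48 kinesins and kinetochore proteins on 0.09 and the 12 cyclins and CDK inhibitors on -0.69. The 7 mitochondrially encoded mRNAs were all XRN1-preferring, from -1.96 for mt-Co1 to -3.48 for mt-Nd2, with a median MTR4 share of 65.5%. These mRNAs are made and kept inside mitochondria, and their binding in these libraries is given as measured.

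The mRNAs that encode the decay machinery lay on both sides of the scale. Of 13 exosome and DIS3 nuclease mRNAs, 8 were SKIV2L-preferring (61.5% against 14.7% over all mRNAs, median 1.10), with the cytoplasmic nuclease Dis3l highest at 2.89, Exosc9 at 2.07 and Exosc8 at 2.02. Of the SKI complex, AVEN and FOCAD mRNAs, Focad (1.54, at 3.54 RPKM), Aven (1.21) and Skiv2l itself (1.14) were SKIV2L-preferring and the scaffold subunit Ttc37 stood at -0.80, for a median of 0.56 over 6 mRNAs that was -0.02 over those at 10 RPKM or more. The Skiv2l mRNA had 7.1 RPKM in the SKIV2L-tagged line and 11.9 RPKM in the XRN1-tagged line, and its ratio was 1.88 after correction for this. Of 13 mRNAs of decapping factors and the XRN1 pathway, 5 were XRN1-preferring, namely Lsm6 (-2.54), Dcp1a (-2.06), Ddx6 (-1.89), Dcp2 (-1.84) and Edc3 (-2.37, at 4.14 RPKM), whereas the Xrn1 mRNA was SKIV2L-preferring (1.46). The 15 mRNAs of the CCR4-NOT and PAN deadenylases, which shorten poly(A) tails, had a median of -0.73 and 6 XRN1-preferring members, led by Cnot6l (-4.37, at 3.7 RPKM) and Cnot7 (-2.83), with the scaffold subunit Cnot3 at 1.60. XRN1-preferring mRNAs made up 38.5% of the decapping and 40.0% of the deadenylase mRNAs, against 28.3% over all mRNAs. Nonsense-mediated decay (10 mRNAs, median -0.12) and ribosome rescue (12 mRNAs, median 0.50, from Gigyf1 at -2.38, with 7.28 RPKM) had members on both sides.

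The ratio was related to mRNA architecture, and the length of the 3′ UTR had the strongest rank correlation with it, -0.38 across the 7240 mRNAs. The ratio counts reads over the whole transcript. The study reports SKIV2L mostly on the 5′ UTR and coding sequence, and XRN1 along whole mRNAs with enrichment in the 3′ UTR. The part of this difference in position in the relation with 3′ UTR length was not tested. Correlations here are across mRNAs bound in the same pooled libraries, so they describe these libraries and mRNAs are not independent replicates. The median 3′ UTR was 418 nt in the SKIV2L-preferring mRNAs, 922.5 nt in the balanced and 1672 nt in the XRN1-preferring mRNAs. With the mRNAs in 5 equal bins from the shortest to the longest 3′ UTR, the median ratio went from 0.50 through -0.07, -0.37 and -0.62 to -0.91, the share of SKIV2L-preferring mRNAs from 32.0% to 5.52%, and the share of XRN1-preferring mRNAs from 9.6% to 46.9%. The 5′ UTR was also shorter in the SKIV2L-preferring mRNAs, with a median of 123 nt against 208 nt (rank correlation -0.20). Coding length had a rank correlation of only -0.08, which was 0.0 with RPKM alone held constant. It became 0.18 once transcript length and RPKM were held constant, where a longer coding sequence means shorter UTRs.

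Expression moved with the ratio as well, and both relations were present side by side. The median RPKM was 45.6 in the SKIV2L-preferring, 23.8 in the balanced and 12.5 in the XRN1-preferring mRNAs (rank correlation 0.36). In the 541 mRNAs of the highest of 5 RPKM bins and the shortest of 5 3′ UTR bins, the median ratio was 0.92, with 46.0% SKIV2L-preferring and 3.7% XRN1-preferring. In the 487 mRNAs of the lowest RPKM bin and the longest 3′ UTR bin it was -1.18, with 3.7% and 55.6%. With transcript length and RPKM held constant the rank correlation of the ratio with 3′ UTR length was -0.24. The part of this that comes from coarse values of low mRNAs was not tested.

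**Figure D2:**
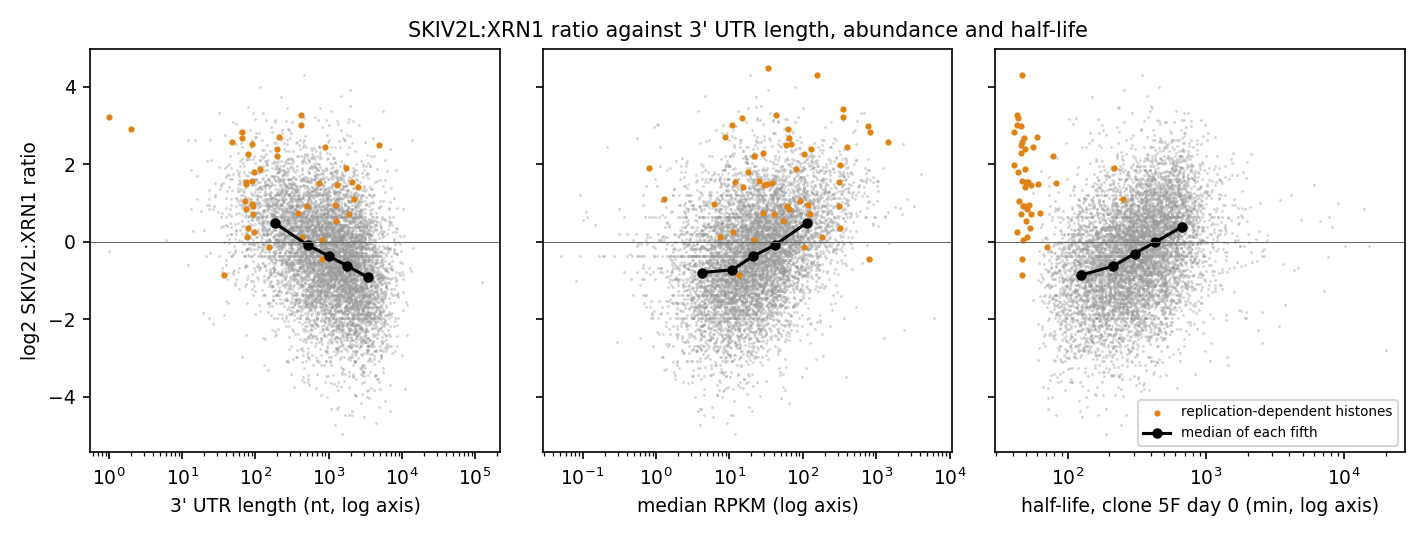
Log2 ratio of SKIV2L to XRN1 binding (y axis) against 3′ UTR length in nt, median RPKM and the authors' half-life in clone 5F in min (log x axes, zeros not drawn); each point is an mRNA, orange points are replication-dependent histones and the black line joins the medians of 5 equal bins. The medians fall from 0.50 to -0.91 over 3′ UTR length and rise from -0.80 to 0.49 over RPKM and from -0.86 to 0.39 over half-life, with the histones above the line at the shortest half-lives.

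Base composition and codon content varied with the ratio to a smaller extent. In the 6725 mRNAs whose transcript could be matched by name and length, the 3′ UTR of SKIV2L-preferring mRNAs had a median GC content of 42.2% against 47.1% for XRN1-preferring mRNAs, and the 5′ UTR 63.2% against 68.3%. Lysine codons made up a median of 6.81% of codons in the former and 5.22% in the latter (rank correlation 0.22, or 0.13 with transcript length and RPKM held constant). Runs of 8 A in the coding sequence, AAAAAAAA, were present in 3.44% of SKIV2L-preferring, 2.74% of XRN1-preferring and 4.35% of balanced mRNAs, so these groups were close to the 3.76% over all mRNAs.

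The letters TATTTAT, the core of the AU-rich elements that mark short-lived mRNAs, were searched on the sense strand after the stop codon. Sites from XRN1-preferring mRNAs at the low end of the scale are printed because this motif was more frequent in that group as a whole. Capitals mark the motif, and the sequences are from Gencode M21 on GRCm38.
Csnk2a1: tggtttTATTTATcaaggt
Trps1: ctgctgTATTTATttattt
Dusp1: ggtcctTATTTATttaaca
Spry2: aaagaaTATTTATttgaag
They lie in the last exon, at chr2:152280325-152280343 (plus strand, Csnk2a1), chr15:50659672-50659690 (minus, Trps1), chr17:26506164-26506182 (minus, Dusp1) and chr14:105892097-105892115 (minus, Spry2), and begin 1247, 991, 104 and 694 nt after the stop codon. TATTTAT was present in 36.8% of XRN1-preferring, 27.6% of balanced and 16.2% of SKIV2L-preferring mRNAs, against 28.5% of all mRNAs. Within the 5 bins of 3′ UTR length, from the shortest to the longest, it was present in 4.22, 13.8, 24.4, 31.6 and 48.8% of SKIV2L-preferring and in 6.25, 17.6, 23.2, 37.8 and 58.4% of XRN1-preferring mRNAs. The share was thus lower in SKIV2L-preferring than in XRN1-preferring mRNAs in 4 of the 5 bins, by less than over all bins together. In balanced mRNAs it was 5.55, 16.2, 24.3, 39.4 and 59.1%, slightly above the XRN1-preferring share from the middle to the longest bin. At like 3′ UTR length the motif was therefore not particular to XRN1-preferring mRNAs.

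SKIV2L-preferring mRNAs were longer-lived than XRN1-preferring mRNAs. With the authors' half-lives of clone 5F at day 0, the median half-life was 453.2 min for SKIV2L-preferring, 316.4 min for balanced and 231.9 min for XRN1-preferring mRNAs, over 7219 mRNAs. In clone 7E these medians were 421.9, 317.5 and 239.4 min. Half-lives recomputed from the deposited counts for each replicate of clone 5F gave group medians of 400.5, 408.5 and 417.7 min for SKIV2L-preferring and 235.1, 206.0 and 219.2 min for XRN1-preferring mRNAs. These replicate medians did not overlap, but the mRNAs of the groups did. The quartiles of the authors' half-lives in clone 5F were 297.3 and 627.8 min for SKIV2L-preferring and 150.8 and 357.7 min for XRN1-preferring mRNAs. The means over replicates were 408.9 ± 8.61 min and 220.1 ± 14.6 min in clone 5F, and 390.0 ± 15.2 min and 229.3 ± 9.9 min in clone 7E (SD, n = 3 technical replicates).

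The rank correlation of the ratio with the decay rate was -0.34 in clone 5F and -0.33 in clone 7E. It was -0.25 in clone 5F with transcript length and RPKM held constant, and within the 5 RPKM bins it lay between -0.22 and -0.30. With half-lives recomputed without the libraries at 0 min it was -0.20. The difference was present at every level of expression: in the lowest RPKM bin the medians were 353.7 min for SKIV2L-preferring and 211.6 min for XRN1-preferring mRNAs, and in the highest 506.9 and 315.0 min. Of the 10 lowest ratios, Csnk2a1 had a half-life of 423.6 min and Spry4 of 72.1 min, so XRN1-preferring mRNAs were not uniformly short-lived.

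The replication-dependent histones were the exception among the SKIV2L-preferring families. The median half-life of the 42 that had one was 48.6 min in clone 5F (range 40.5 to 250.6 min), and 40 of them were under 120 min. These half-lives come from a single line fitted over all time points, whereas nearly all histone RNA was lost by 120 min. Over 47 histones, library medians of the RNA left were 0.645 and 0.684% at 120 min and 0.349 to 0.361% at 360 min. The fitted half-lives thus do not describe the early loss of these mRNAs. The other 1026 SKIV2L-preferring mRNAs had a median of 458.6 min, and 22 of them were under 120 min, among them Jade1 (64.2 min), Id2 (83.0 min) and Gapdh (97.7 min), which were chosen after their values were seen. Only uniquely mapped reads were kept, so the value of Gapdh, which has many processed pseudogenes, is uncertain. The polyadenylated replacement histones had a median of 552.9 min.

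Decay was then tested on the counts with edgeR's quasi-likelihood test as the log2 slope per hour relative to the median gene, with Benjamini-Hochberg adjustment at 0.05 over all genes. In clone 5F, 676 of 1059 SKIV2L-preferring mRNAs decayed slower than the median gene (63.8%) and 184 faster. Slower decay was called for 29.7% of all genes tested and 38.8% of all mRNAs with a ratio, and faster decay for 34.0% and 36.0%. Of 2045 XRN1-preferring mRNAs, 1061 decayed faster (51.9%) and 458 slower. In clone 7E the SKIV2L-preferring mRNAs had 654 slower and 169 faster of 1060, and the XRN1-preferring mRNAs 474 slower and 980 faster of 2044, against 29.2% slower and 32.4% faster over all genes tested (39.0% and 32.9% of mRNAs with a ratio). In both clones, 626 SKIV2L-preferring mRNAs were slower and 955 XRN1-preferring mRNAs were faster.

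**Figure D3:**
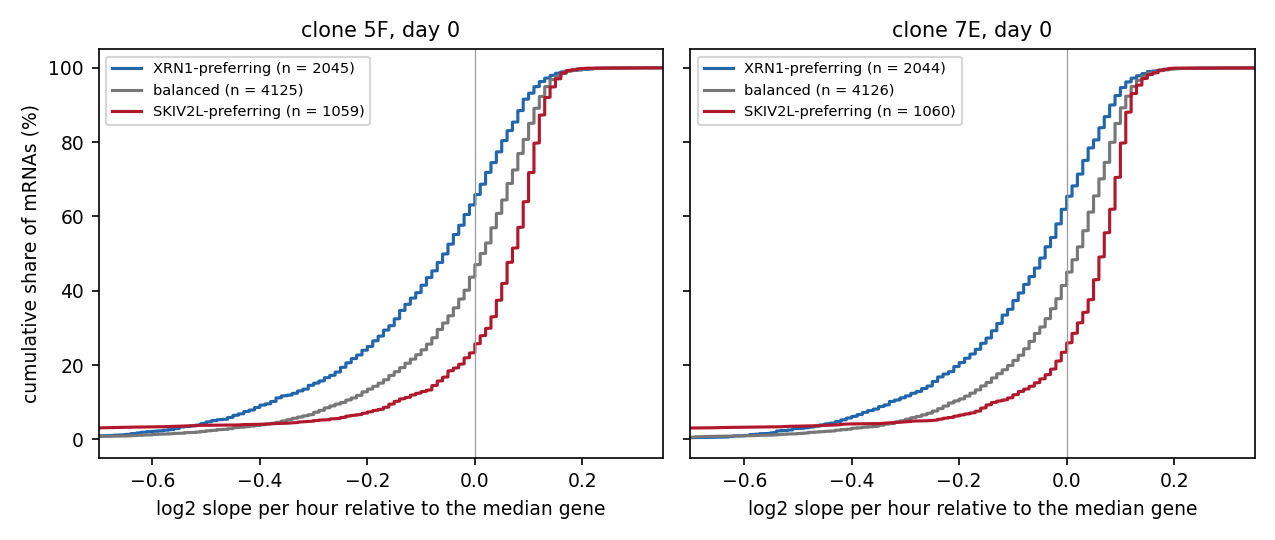
Cumulative share of mRNAs (y axis) against their log2 slope per hour relative to the median gene (x axis, drawn from -0.7 to 0.35) at day 0 in clones 5F and 7E, for SKIV2L-preferring, balanced and XRN1-preferring mRNAs. The groups include their replication-dependent histones. The XRN1-preferring curve lies to the left, towards faster decay, in both clones.

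By family in clone 5F, slower decay was called for 68 of 74 respiratory chain mRNAs, 29 of 33 proteasome mRNAs, 7 of 7 chaperonin mRNAs, 20 of 20 aminoacyl-tRNA synthetase mRNAs, 9 of 12 basement membrane mRNAs and 8 of 13 exosome and DIS3 mRNAs. Not every family with a high ratio had such calls: 1 of 6 SFPQ-type and FET mRNAs was slower, and of the 50 replication-dependent histones none was slower and 48 were faster. Among families with low ratios, faster decay was called for 123 of 151 zinc finger mRNAs, 15 of 16 immediate early mRNAs, 8 of 8 MAP kinase feedback inhibitors, 10 of 12 Kmt2 and Setd mRNAs, 6 of 7 Myc and Pim mRNAs and 6 of 7 mitochondrially encoded mRNAs. In clone 7E the respective counts were 66, 30, 7, 20, 9 and 7 slower, 1 slower, 48 faster, and 119, 15, 8, 10, 6 and 6 faster.

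Single mRNAs with the largest differences show both the rule and its exceptions. Dusp6, another MAP kinase phosphatase (ratio -1.49), had a slope of -0.92 relative to the median gene (SE 0.0702, edgeR adjusted p = 4.09e-08), Dusp1 of -0.94 (SE 0.104, adjusted p = 1.99e-06) and Gbx2, a homeobox factor (ratio -2.12), of -0.85 (SE 0.0935, adjusted p = 1.96e-06). In Dusp1, normalized counts of 418.6, 529.5 and 496.0 before actinomycin D were 10.5 and 23.6 at 120 min. Among the SKIV2L-preferring mRNAs outside the histones, Nupr1, a stress-induced chromatin factor (ratio 1.11), had the largest slower difference, 0.37 (SE 0.0352, adjusted p = 4.35e-07), followed by Flot1 (0.21, SE 0.0204) and Pltp (0.20, SE 0.019). The normalized counts of Nupr1 in clone 5F rose from 89.2, 96.1 and 94.7 to 170.2, 182.1 and 185.6 at 360 min, so its slope does not describe a decline. The XRN1-preferring Slc1a4, an amino acid transporter (ratio -1.47), was also slower at 0.35 (SE 0.0422, adjusted p = 5.37e-06). Its counts in clone 5F fell from 270.6, 299.1 and 306.7 to 135.4 and 131.8 at 120 min and stood at 458.9, 415.7 and 415.9 at 360 min. They thus did not follow a simple decline.

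All 48 replication-dependent histones that were called in this comparison decayed faster, of 50 tested, with a median slope of -1.35 in clone 5F and -1.34 in clone 7E. In clone 5F at day 0, the library medians of the percent of RNA left at 120 min were 0.645 and 0.684 over the 47 histones with a mean of at least 100 counts before the drug in each group. For the 1010 other SKIV2L-preferring mRNAs that passed the same minimum they were 74.0 and 75.1, and for the 2005 XRN1-preferring mRNAs 50.0 and 52.1. At 360 min 54.4 to 55.7% was left of the former and 30.6 to 32.4% of the latter.

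For the comparison with 4OHT the targeted gene was examined first. In clone 7E, Skiv2l fell from 967.6, 1037.2 and 903.0 normalized counts at day 0 to 405.8, 389.3 and 367.8 at day 4, a log2 change of -1.32 (SE 0.0744, edgeR adjusted p = 7.53e-13), and its day 0 level was already below that of clone 5F. In clone 5F it was 4217.1, 4201.4 and 4275.0 at day 0 and 4477.4, 3879.5 and 4222.1 in the libraries labelled day 4. The gene counts include exons outside the deleted stretch, so they do not measure the deletion itself, and the libraries of clone 5F are called those labelled day 4. The summed level of 6 mESC markers was 2632.7 to 2729.4 CPM in day 0 libraries without actinomycin D and 2199.6 to 2472.7 CPM in those labelled day 4. In clone 7E, summed markers of fibroblasts were 1.94 to 2.45 CPM at day 0 and 4.91 to 6.0 CPM at day 4, those of neural cells 63.0 to 68.0 and 41.5 to 45.9 CPM, those of mesoderm 1.62 to 1.97 and 1.0 to 1.38 CPM, and those of primitive endoderm 3.64 to 5.19 and 4.1 to 5.29 CPM. In clone 5F the same sums were 5.25 to 5.93 and 6.89 to 8.45 CPM for fibroblasts, 27.5 to 29.4 and 22.4 to 24.2 CPM for neural cells, 2.37 to 3.11 and 2.04 to 2.31 CPM for mesoderm, and 49.6 to 51.1 and 41.5 to 43.3 CPM for primitive endoderm. The part of cell state in the changes below was not tested.

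RNA levels without actinomycin D changed in both directions in both binding groups. In clone 7E, 271 of 1060 SKIV2L-preferring mRNAs were higher at day 4 (25.6%) and 249 lower (23.5%), and 385 of 2045 XRN1-preferring mRNAs were higher (18.8%) and 567 lower (27.7%). Over all genes tested 20.8% were higher and 19.3% lower, and over all mRNAs with a ratio 21.4% and 25.7%. In clone 5F, with 199 higher and 197 lower of 1060 SKIV2L-preferring and 290 higher and 356 lower of 2045 XRN1-preferring mRNAs, the background was 12.6% and 11.9% of all genes and 16.2% and 17.5% of mRNAs with a ratio. The medians of both groups lay between -0.04 and 0.00 in both clones. Without the replication-dependent histones, equal numbers of SKIV2L-preferring mRNAs, 249 each of 1027, were higher and lower in clone 7E. With each library scaled by its own ERCC spike-ins, RNA added in a fixed amount, 1035 SKIV2L-preferring and 2025 XRN1-preferring mRNAs were lower and 11 of each were higher in clone 7E.

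The replication-dependent histones were higher in both clones. In clone 5F, 48 of 50 rose in the libraries labelled day 4 (median log2 change 0.68), and in clone 7E 32 of 50 rose (median 0.30), which was 21 without replicate 1. Hist1h1a had 18265.8, 19354.5 and 19202.8 normalized counts at day 0 and 42794.3, 38560.7 and 42203.1 in the libraries labelled day 4 of clone 5F. The increase was smaller in clone 7E for 23 of the 50 by an edgeR test of the difference between clones, a count that was 10 without replicate 3 and 37 without a filter on low counts. A smaller change in clone 7E was called for 5.29% of all genes and 8.44% of mRNAs with a ratio, and a larger one for 6.65% and 7.29%. This scaling moved the median of all genes in clone 7E by -1.10 and in clone 5F by -0.07 on the log2 scale. On that scale 46 histones were lower and 1 higher in clone 7E, with a median of -0.80, so the direction there holds only relative to the other genes, while 47 were higher in clone 5F.

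Families on either side of the ratio also changed in level. In clone 7E, 9 of 10 stress-response mRNAs with upstream reading frames rose (90.0%), among them the balanced Atf4 (1.35) and the SKIV2L-preferring Ddit3 (2.21), as did the XRN1-preferring Chac1 and Trib3 (log2 changes 2.82 and 1.85), which are outside this list and also belong to the integrated stress response. Of 12 basement membrane mRNAs 10 rose (83.3%, Col4a1 by 1.04), as did 11 of 20 aminoacyl-tRNA synthetase mRNAs (55.0%), against 21.4% of all mRNAs with a ratio. The higher fibroblast marker sums given above were measured in the same libraries as the basement membrane mRNAs, and their part was not tested. In clone 7E 31 of 69 mitochondrial ribosomal protein mRNAs (44.9%) and 26 of 74 respiratory chain mRNAs (35.1%) fell, against 25.7% of all mRNAs with a ratio. In clone 5F these counts were 8, 7 and 6 that rose, against 16.2% of mRNAs with a ratio, and 20 and 23 that fell, against 17.5%, and Col4a1 was at -0.12 (adjusted p = 0.0905). The directions in clone 7E are relative to the median gene, as for the histones.

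Among mRNAs with a ratio, slower decay at day 4 than at day 0 was called mostly in the histones, whereas faster decay was called only outside them. In clone 7E, 25 of 50 replication-dependent histones decayed slower at day 4 (median change in slope 0.67 log2 per hour) by the interaction of time and day in edgeR, and in clone 5F 16 of 50 did (median 0.76), which was 26 with TMM scaling and 9 with DESeq2. Of all genes tested, 0.413% were slower and 0.494% faster in clone 7E, and 0.134% and 0.0614% in clone 5F (of mRNAs with a ratio 0.526% and 0.816%, and 0.235% and 0.124%). Of the mRNAs with a ratio that were slower, 25 of 38 in clone 7E and 16 of 17 in clone 5F were replication-dependent histones. Of 1060 SKIV2L-preferring mRNAs, 20 were slower in clone 7E and 19 of these were replication-dependent histones, the other being Perp (0.11, SE 0.0236, adjusted p = 0.0166). In clone 5F all 13 that were slower were such histones. Of 2045 XRN1-preferring mRNAs, 4 were slower in clone 7E (Igdcc4, Lrrc28, Mras and Ptp4a3) and 12 faster. In clone 5F none of them was called by edgeR, with 32 at an unadjusted p under 0.05, and DESeq2 called 3 faster.

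The histone time courses show where the slopes differ. In clone 5F at day 0, Hist1h1a went from 18111.1, 19197.5 and 19031.6 normalized counts to 140.7 and 109.0 at 120 min and to 64.4, 65.0 and 64.1 at 360 min. In the libraries labelled day 4 it went from 42517.2, 38311.8 and 41916.2 to 18977.8, 15863.7 and 17364.0 and then to 5134.4, 5645.6 and 5899.3. The libraries of the 2 groups did not overlap at any time. In clone 7E it went from 28226.0, 28937.8 and 29578.1 to 1769.0, 1645.5 and 1480.1 at 120 min on day 0, and from 63605.0, 59182.8 and 58163.0 to 28257.5, 23587.0 and 24720.4 on day 4. Hist1h4d, a histone mRNA with more XRN1 than SKIV2L, moved alike: its counts at 120 min in clone 5F were 76.0 and 117.8 at day 0 and 1773.7, 1434.3 and 1976.3 in the libraries labelled day 4. Pim3, a short-lived XRN1-preferring kinase mRNA, had 394.9 and 423.3 counts at 120 min at day 0 and 348.2, 383.9 and 377.1 in those labelled day 4.

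**Figure D4:**
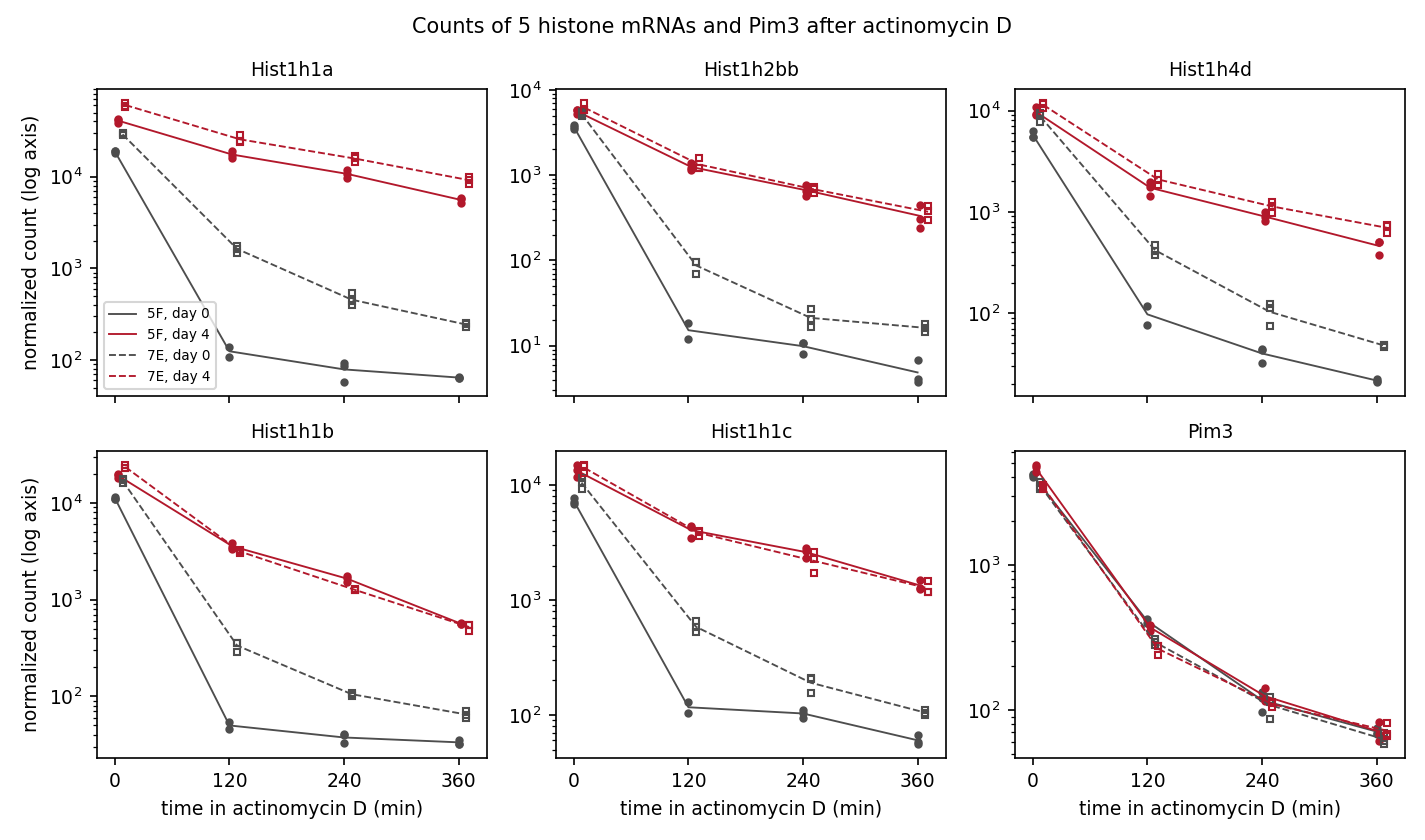
Normalized counts (log y axis) of 5 histone mRNAs and Pim3 in each library against minutes of actinomycin D (x axis, points shifted slightly), for clones 5F and 7E at day 0 and in libraries labelled day 4. The histones stay higher at day 4 from 120 min on in both clones, and the Pim3 points of both days overlap or nearly so.

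Over the 47 histones the library medians of the percent of RNA left at 120 min were 0.645 and 0.684 at day 0 and 10.3 to 13.3 in the libraries labelled day 4 in clone 5F. In clone 7E they were 1.54 to 1.85 at day 0 and 10.8 to 12.2 at day 4. The ranges did not overlap in either clone, and at 360 min they were 0.349 to 0.361 against 3.14 to 3.61 in clone 5F and 0.351 to 0.396 against 3.12 to 3.83 in clone 7E. For the other SKIV2L-preferring mRNAs the percent left at 120 min was 74.0 and 75.1 against 72.8 to 75.0 in clone 5F, and 73.2 to 75.6 against 68.2 to 70.4 in clone 7E. For XRN1-preferring mRNAs it was 50.0 and 52.1 against 45.9 to 50.5 in clone 5F, and 50.0 to 52.1 against 47.0 to 52.3 in clone 7E.

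Most of the histone difference lay in the first 120 min. With only the 0 and 120 min libraries, an alternative added after the data were seen, 41 of 50 histones were slower in clone 7E and 40 of 50 in clone 5F, against 0.744% and 0.323% of all genes tested slower and 0.549% and 0.0519% faster. Without the libraries at 0 min, 11 of 49 were slower in clone 7E, whereas in clone 5F 5 of 49 were faster (median -0.24). The count by slope depends on the number of libraries, with 4 to 6 histones slower in clone 7E and 1 or 2 in clone 5F when 1 replicate number was left out, although the median slope change stayed between 0.63 and 0.75.

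Outside the replication-dependent histones, 59 of 7231 mRNAs with a ratio decayed faster at day 4 in clone 7E and 9 of 7231 in clone 5F. Of the 20 aminoacyl-tRNA synthetase mRNAs, 10 were faster in clone 7E and 4 in clone 5F. Nars, the asparaginyl-tRNA synthetase (ratio 1.23), had counts of 13454.4, 13220.9 and 13387.5 before the drug and 11010.7, 11870.5 and 11963.8 at 360 min on day 0 of clone 7E. On day 4 they were 17959.4, 17552.1 and 17016.8, and 8249.6, 7929.8 and 8744.2 at 360 min, a change in slope of -0.15 (SE 0.0131, edgeR adjusted p = 1.56e-07). The corresponding change in clone 5F was -0.07 (SE 0.0122, adjusted p = 0.0065). Those called comprised members of both groups by ratio, the SKIV2L-preferring Eprs, Gars, Iars, Lars, Nars and Tars and the balanced Aars, Cars, Sars and Yars. The XRN1-preferring amino acid transporters Slc1a4 (-0.39), Slc7a1 (-0.28) and Slc7a5 (-0.14) were also faster in clone 7E, but Slc1a4 was at 0.10 with only the 0 and 120 min libraries.

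**Figure D5:**
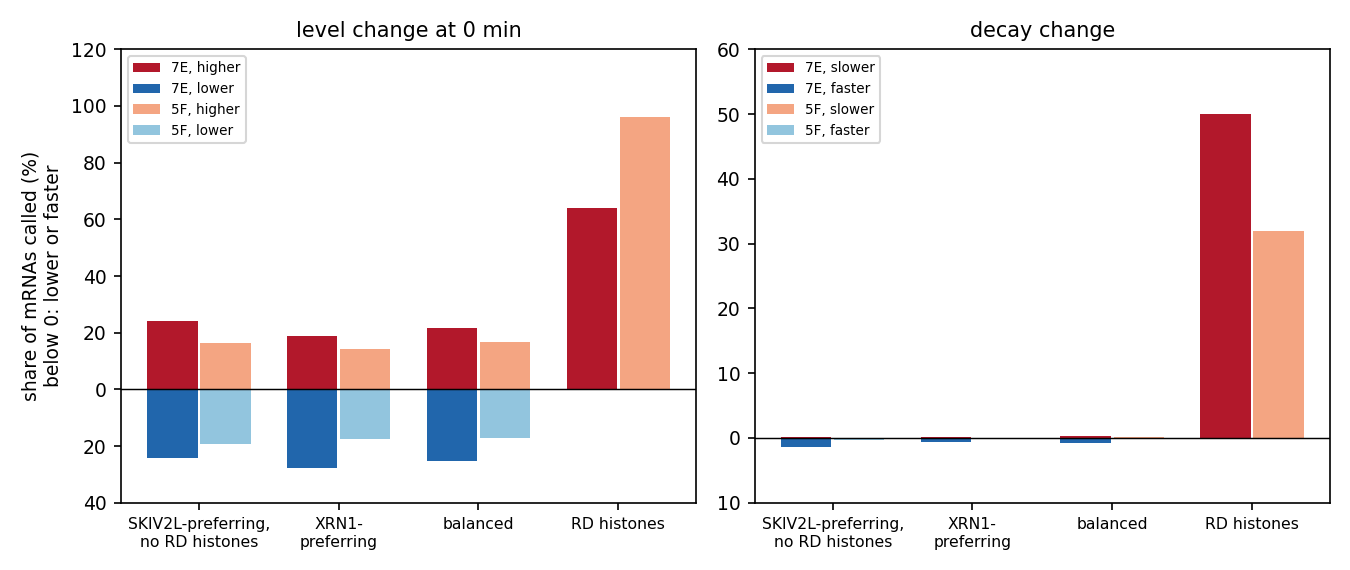
Percent of mRNAs called higher or slower (above 0) and lower or faster (below 0) by edgeR between day 0 and day 4, for RNA levels without actinomycin D and for decay, in clones 7E and 5F, by binding group with the replication-dependent histones apart. The histone bars are the tallest in each panel (64.0% and 96.0% for levels, 50.0% and 32.0% for decay), and the SKIV2L- and XRN1-preferring bars for decay are at most 1.36%.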

How the data were processed

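The authors deposited 1 binding table, whose SKIV2L, XRN1 and MTR4 columns are fractions that sum to 1 for each mRNA. These were made from pooled CRAC libraries scaled to equal read totals, after collapse of molecular identifiers and unique mapping. Introns and repeats were excluded, and mRNAs with few reads for any of the proteins were left out. The same table holds lengths and a median RPKM, which the authors computed from RNA-seq. A file deposited by the authors gives half-lives per clone in min, treated here as a score with no fixed range, fitted to the natural log of normalized counts over time. The half-life count table holds the authors' raw read counts per gene, 24440935 to 34114250 per library, with ERCC spike-ins. The submitters' processing notes name STAR, Bowtie2 2.3.4.1 and DESeq2. Columns of the authors' own comparisons (fold changes, base means and adjusted p-values) were not used, nor were 2 columns of the binding table, a half-life and a mean normalized count.

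The ratio was log2 of the SKIV2L fraction over the XRN1 fraction, and bounds of 1 and -1 set the groups. Counts were tested with edgeR 4.0.16 (quasi-likelihood, R 4.3.3), with its filter on low counts and Benjamini-Hochberg adjustment. The tests were for decay (log2 slope per hour), for levels at 0 min and for the interaction of time and day. Libraries were scaled by median of ratios for decay and for levels. For the interaction they were scaled within each time point and by the mRNA-to-ERCC ratio of that time point. Percent left and time courses used counts scaled within each time point and multiplied by the mRNA-to-ERCC ratio of that time point over 34 spike-ins (0.649, 0.531 and 0.438 at 120, 240 and 360 min relative to 0 min). Half-lives were recomputed with a pseudocount of 1. limma 3.58.1, DESeq2 1.42.0, TMM scaling, no filter, a replicate block, left-out replicates, spike-in scalings and subsets of time points were the alternatives. On simulated data the test recovered 91.5% of 200 genes changed by 0.5 log2 per hour among 17417 in the decay change of clone 7E, 74% of as many among 18623 in the difference between clones in decay change, and 49% of 200 genes changed by 1 log2 among 17209 in the difference between clones in levels. Replicates of a group differed beyond sampling noise in all 46 pairs.

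Named mRNAs were the 10 highest and lowest ratios at 10 RPKM or more outside the replication-dependent histones, the 5 histones highest in RPKM, transcripts the study names, the highest and lowest members of families at 10 RPKM or more, decay factors, and the 3 mRNAs with the largest tested changes per group and direction at a mean of 100 counts or more. Other members were named after their values were seen. The mRNAs, families and lists were chosen with earlier results of these data known. Motifs were searched in Gencode M21 transcripts of equal length. Figures were drawn with matplotlib 3.10.9.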

Additional observations from a re-analysis of the deposited data

Results flagged for a closer look

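The change in RNA level without actinomycin D differed between the clones for 12 of the XRN1- or SKIV2L-preferring mRNAs named in clone 7E, by an edgeR test of the difference (7E minus 5F, log2, Benjamini-Hochberg adjustment over all genes) that was added after the data were seen. The values are given without a cause, which was not tested, and they are relative to the median gene. Atf3 (3.69 RPKM), Chac1 (9.8), Cyr61 (4.06), Klf15 (8.15), Sox1 (4.01) and Zic5 (2.83) were under 10 RPKM. Among SKIV2L-preferring mRNAs, S100a6, a calcium-binding protein, rose by 2.11 in clone 7E and by 0.32 in clone 5F, a difference of 1.79 (adjusted p = 6.73e-12), and Cyr61, a secreted matrix protein, by 2.26 and 0.75, a difference of 1.50 (adjusted p = 5.15e-11). Ddit3 differed by 0.78 (adjusted p = 0.0167). Skiv2l itself differed by -1.31 (adjusted p = 4.43e-10), Zic5, a zinc finger factor, by -1.35 (adjusted p = 6.16e-09) and Trh, the precursor of thyrotropin-releasing hormone, by -0.45 (adjusted p = 5.6e-05). Among XRN1-preferring mRNAs, the stress-response mRNAs Atf3, Chac1 and Trib3 rose more in clone 7E, by 1.69 (adjusted p = 1.08e-08), 1.07 (adjusted p = 0.000194) and 0.86 (adjusted p = 2.27e-07). Sox1, a neural factor, differed by -2.19 (adjusted p = 5.93e-08), from a level of 388.0, 456.1 and 401.0 normalized counts at day 0 of clone 7E against 77.7, 106.9 and 90.3 in clone 5F. Fgf15 differed by -1.35 (adjusted p = 3.3e-09) and Klf15 by -0.89 (adjusted p = 0.000427).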

How the results depend on the processing

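The binding ratio rests on pooled values, so alternatives test the calculation and not biological error. Of the alternative values, 373 kept their size and direction, 108 moved and 1 changed sign; of values for single mRNAs, 285 stayed on the same side of the threshold, 47 did not and 4 changed sign; causes were not tested. With bounds of 0.5 there were 1876 SKIV2L-preferring and 3125 XRN1-preferring mRNAs, with bounds of 1.5 550 and 1237, and at 10 RPKM or more 1208 were XRN1-preferring. Correction for RPKM moved the median of histone H2A to 2.35, H2B to 2.41, all replication-dependent histones to 1.85, replacement histones to 0.33, hnRNP proteins to 0.89 and Myc and Pim to -0.90. At 10 RPKM or more, medians were 2.21 for H2A, -0.01 for Myc and Pim, -0.16 for stress-response mRNAs and -0.71 for Kmt2 and Setd, and that of SKI complex, AVEN and FOCAD turned to -0.02. Without mRNAs with an MTR4 share above 50% the rank correlation with RPKM was 0.45, and without the 0 min libraries that with decay rate was -0.20.

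With a spike-in factor per time point, which measures decay against added RNA and not the median gene, 1 SKIV2L-preferring and 1 XRN1-preferring mRNA were slower and 1048 and 2017 faster in clone 5F. In clone 7E these were 1 and 2 slower and 1053 and 2029 faster, with 15217 genes called, and Flot1 (0.00) and Pltp (-0.02) changed sign in clone 5F. With own ERCC scaling of levels, clone 7E had 11 SKIV2L-preferring mRNAs higher and 1035 lower, 11 XRN1-preferring higher and 2025 lower, and 14974 genes called, and clone 5F had 105 and 103 higher in these groups.

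For the decay change of clone 7E, TMM gave 7 SKIV2L-preferring faster and 14 XRN1-preferring slower and 19 faster. DESeq2 gave 31 and 20 faster and 272 genes in all, against 158. Without a filter there were 0 XRN1-preferring slower and 7 faster. Without the 0 min libraries 5 SKIV2L-preferring were faster and 22 XRN1-preferring slower, and with only 0 and 120 min, chosen after the data were seen, 9 and 15, with Ptp4a3 at -0.01 and Slc1a4 at 0.10. In clone 5F, TMM gave 21 SKIV2L-preferring slower, 1 faster and 2 XRN1-preferring faster, DESeq2 8, 5 and 3, and limma-voom 8 slower. Without the 0 min libraries the counts were 0, 5 and 2, with 14 genes in all against 35. With only 0 and 120 min they were 28, 1 and 3, with 1 XRN1-preferring slower and 65 in all. The decay change was not called different between clones for any gene by edgeR, with 83 of 7232 mRNAs at an unadjusted p under 0.05, and DESeq2 called 4 genes, 1 of them SKIV2L-preferring.

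The libraries share replicate numbers but these do not pair them: deviations of same-numbered libraries correlated from -0.76 to 0.63, with medians from -0.21 to -0.05. With the replicate block, SKIV2L-preferring mRNAs lower in clone 5F went from 197 to 127 and XRN1-preferring mRNAs slower in clone 7E from 4 to 2, and no other count moved by over 1.5 times. Leaving out each replicate number in turn gave, for levels in clone 7E, 142 to 272 SKIV2L-preferring lower, 238 to 345 XRN1-preferring higher and 4284 to 5952 genes in all, the lowest each time without replicate 1. In clone 5F it gave 116 to 217 SKIV2L-preferring higher and 64 to 254 lower, 130 to 379 XRN1-preferring higher and 167 to 372 lower, and 1882 to 4423 in all. For the decay change of clone 7E it gave 4 to 6 SKIV2L-preferring slower and 3 to 10 faster, 0 to 0 XRN1-preferring slower and 1 to 3 faster, and 29 to 50 in all, and in clone 5F 1 to 2 and 0 to 0 SKIV2L-preferring and 2 to 4 in all. For the difference between clones in levels it gave 55 to 80 SKIV2L-preferring higher and 25 to 50 lower, 48 to 107 and 81 to 189 XRN1-preferring, and 751 to 1446 in all.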
